A study of Mus musculus with 5 samples.

Results

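The 10 genes for costimulators and immune checkpoint ligands, the molecules through which a macrophage exchanges activating and restraining signals with T cells and other cells, were followed in bone marrow-derived macrophages (BMDMs). The genes were *Cd80*, *Cd86*, *Cd40* and *Icosl*, *Cd274* and *Pdcd1lg2*, *Vsir*, *Havcr2*, *Lgals9*, and *Sirpa*. They were chosen by symbol and matched to their Entrez gene IDs, and they make up 10 of the 17058 genes listed in at least 1 library. All 10 were among the 12576 genes abundant enough to test, and the lowest expected count of any of them in any library was 30.

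The BMDMs came from Balb/c mice whose age the labels do not give, were grown with M-CSF, and were cocultured for 48 hours with 4T1 cells, a mouse mammary carcinoma line. A porous membrane separated the cell types, and the RNA was taken from the macrophages. In 2 libraries the partner was the unedited parental line (WT), and in 3 it was 4T1 in which the sheddase gene *Adam17* had been knocked out by CRISPR/Cas9 (Adam17-/-). Every library of the second group carries the same knock-out designation, 2.8, so an effect of *Adam17* loss and an effect of anything else particular to this line cannot be told apart. The macrophages of both groups had intact *Adam17*, at a mean level of 199 CPM (counts scaled to a common library total) beside WT cells and 159 beside Adam17-/- cells (log2 fold change -0.32, edgeR adjusted p = 0.0129). Nothing in the labels says that libraries of a group came from separate mice or cultures, so the p-values measure the spread between these libraries, which may be technical.

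A T cell that recognizes its antigen needs a further signal through CD28, which is given by CD80 and CD86 on the presenting cell. CTLA-4 competes for both proteins and restrains the T cell, while PD-L1 and PD-L2, encoded by *Cd274* and *Pdcd1lg2*, restrain it through PD-1. VISTA, galectin-9 and TIM-3 are further brakes, and SIRPα on the macrophage binds CD47 on a target cell as a signal not to engulf it.

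*Cd274* and *Pdcd1lg2* lie side by side on mouse chromosome 19, and both were higher in BMDMs cocultured with Adam17-/- cells. The DNA in front of a start site of each is shown because these are the genes that rose. The first line is the 47 bases before the start that RefSeq's promoter sequence uses for *Cd274* (GRCm38.p6, chr19:29367391-29367437, plus strand). The second is the 250 bases before the RefSeq start of *Pdcd1lg2* (GRCm38.p6, chr19:29410669-29410918, plus strand). The RefSeq interval of *Cd274* as a whole begins farther upstream, at 29362107, so the first stretch lies in front of 1 of its start sites but within that interval, as does the promoter searched for *Cd80*. Sequences are from RefSeq and read 5′ to 3′, and capitals mark motif matches.
Cd274: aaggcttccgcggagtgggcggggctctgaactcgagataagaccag
Pdcd1lg2: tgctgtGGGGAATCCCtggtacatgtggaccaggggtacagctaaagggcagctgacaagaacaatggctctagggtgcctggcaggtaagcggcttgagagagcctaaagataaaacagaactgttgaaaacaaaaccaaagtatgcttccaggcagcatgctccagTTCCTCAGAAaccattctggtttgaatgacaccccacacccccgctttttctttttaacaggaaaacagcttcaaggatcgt

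Promoters were searched on both strands for 5 motifs, with N for any base. The NF-kB motif was GGG and CC with 5 N between them, and the interferon regulatory factor motif was GAAA and GAAA with 2 N between them. The STAT motif was TTC and GAA with 3 N between them, the STAT6 motif the same with 4 N, and the AP-1 motif TGANTCA. Of the 10 genes, 7 had a RefSeq promoter entry, all but *Cd86*, *Cd40* and *Sirpa*. *Pdcd1lg2* held an NF-kB match that begins 244 bases before its start and a STAT6 match that begins 82 bases before it, and these did not overlap. Such matches occur in 45.8% and 5.85% of the 32851 promoters searched, which makes the first of them commonplace. *Cd274* held none of the 5 motifs in its own 250 bases, nor did *Vsir*. The promoter of *Cd80* held 2 NF-kB matches and 1 AP-1 match, the last a motif found in 6.75% of promoters. Genes that did not pass held such matches too, with 1 AP-1 match in *Havcr2*, 2 NF-kB matches in *Icosl*, and 1 NF-kB match in *Lgals9* beside 1 interferon regulatory factor match, a motif found in 2.98% of promoters. A match describes letters only and does not show that a factor bound.

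Of the 10 genes, 4 passed the test in edgeR (adjusted p at or under 0.05 over all genes tested). *Cd274* and *Pdcd1lg2* rose by 1.91-fold and 2.09-fold beside Adam17-/- cells, *Cd80* fell by 35.3% and *Vsir* fell by 20.7%. The other 6 did not pass. Over all genes tested, 14.9% passed as higher and 16.8% as lower, 31.7% in all, so a share of 4 in 10 is near the background. Of all calls 46.9% were higher, against 73.7% when libraries were scaled by their totals alone, where the median of all genes shifted from 0.01 to 0.16. Under that scaling *Cd274*, *Pdcd1lg2* and *Cd80* still passed, *Cd86* passed as higher, *Vsir* did not pass, and the small estimates of *Lgals9* and *Cd40* turned from negative to positive. The groups did not overlap in CPM for 8 of the 10 genes, against 58.0% of all genes tested. The median log2 fold change of the 10 was -0.10, and that of all genes was 0.01. The former rested on single libraries and on the scaling, at -0.02 without Adam17-/- replicate 2, -0.20 without WT replicate 2 and 0.05 with library totals alone. *Pdcd1lg2* was the only gene of the 10 to pass with a log2 change of at least 1 in size, as 3.36% of all genes did as higher and 0.867% as lower. *Cd274* reached that size too, at 1.08, with library totals alone, and *Pdcd1lg2* fell short of it without WT replicate 2 (0.78), with log2(FPKM + 1) (0.73) and, narrowly, with a replicate block (0.99).

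**Figure D1:**
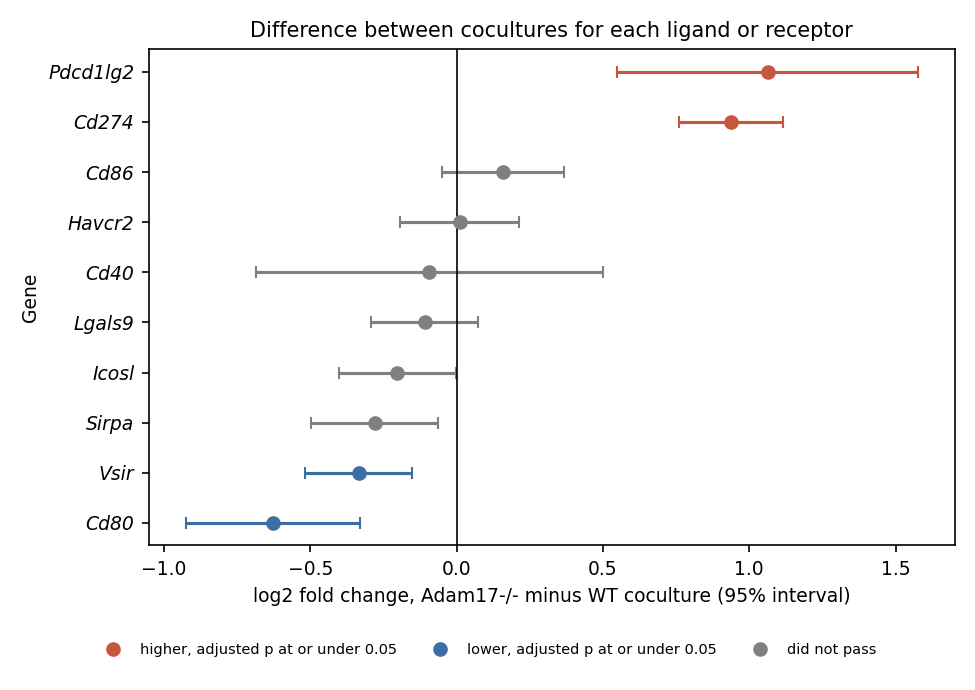
Log2 fold change (x axis) of each of the 10 genes (y axis), Adam17-/- minus WT coculture, with points for the edgeR estimate and bars for the unadjusted 95% interval. *Pdcd1lg2* at 1.06 and *Cd274* at 0.94 stand to the right of 0, and *Cd80* at -0.63 lies farthest to its left.

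*Cd274* encodes PD-L1, the widely expressed ligand of PD-1 (Entrez 60533, chr19:29362107-29388095, plus strand). It measured 241 and 234 CPM in the WT libraries and 465, 456 and 442 CPM in the Adam17-/- libraries, resting on 4321 to 8497 expected counts each. The groups were far apart, and libraries within each group were close together. On the log2 scale the fold change was 0.94 (SE 0.0793, 95% interval 0.76 to 1.11, edgeR adjusted p = 0.000203), and 6.46% of all genes tested changed by more on that scale.

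*Pdcd1lg2* encodes PD-L2, the second ligand of PD-1, which is held mainly by macrophages and dendritic cells (Entrez 58205, chr19:29410919-29472927, plus strand). It was far scarcer, at 4.34 and 2.76 CPM beside WT cells and 8.10, 5.92 and 8.21 CPM beside Adam17-/- cells. These values rest on 83, 51, 148, 90 and 155 counts. The groups did not overlap, but the spread within each was wide. Its log2 fold change was 1.06 (SE 0.229, 95% interval 0.55 to 1.58, edgeR adjusted p = 0.00816).

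*Cd80*, also known as B7-1, encodes the ligand that binds CTLA-4 more tightly than it binds CD28 (Entrez 12519, chr16:38457430-38495958, plus strand). It gave 16.1 and 13.3 CPM beside WT cells and 8.76, 9.60 and 10.2 CPM beside Adam17-/- cells. Both WT libraries lay above all 3 of the others, although they differed from each other. For *Cd80* the log2 fold change was -0.63 (SE 0.133, 95% interval -0.93 to -0.33, edgeR adjusted p = 0.00763).

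*Vsir* encodes VISTA, a myeloid checkpoint protein related to PD-L1 (Entrez 74048, chr10:60346851-60430294, plus strand). It was abundant, at 1078 and 1033 CPM beside WT cells and 813, 827 and 871 CPM beside Adam17-/- cells, with no overlap. The log2 fold change was -0.33 (SE 0.0814, 95% interval -0.52 to -0.15, edgeR adjusted p = 0.0136). The call was lost without Adam17-/- replicate 1 (adjusted p = 0.0905) or without replicate 2 (adjusted p = 0.0667), and also when libraries were scaled by their totals alone, where the log2 change was -0.19. *Vsir* lies inside the gene *Cdh23* on the opposite strand, whose mean was 0.956 CPM in the WT group and 2.05 CPM in the other, a small amount beside that of *Vsir*.

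**Figure D2:**
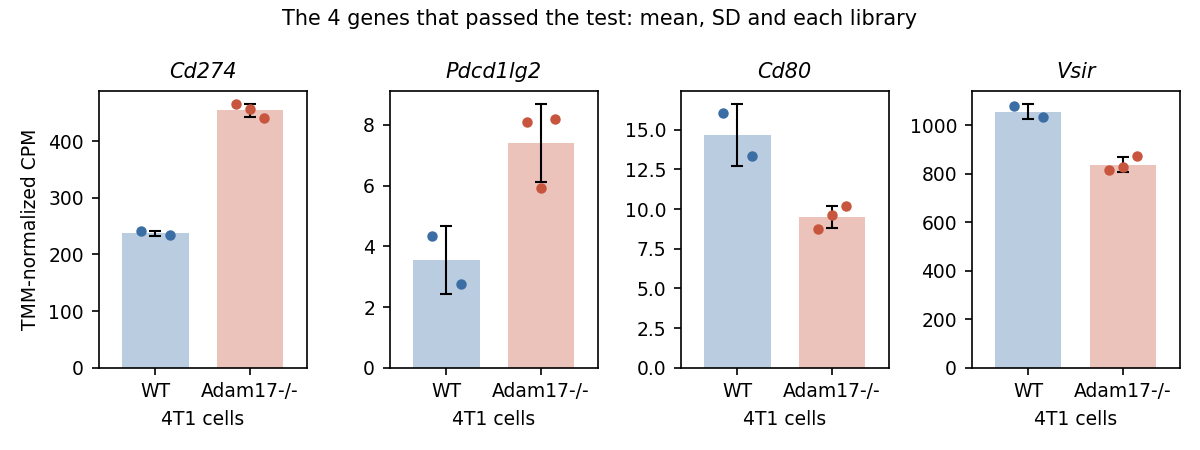
TMM-normalized CPM (y axis) of the 4 genes that passed, by coculture (x axis), with bars for the mean, lines for the SD and points for the 2 WT and 3 Adam17-/- libraries. *Cd274* and *Pdcd1lg2* are higher in all 3 Adam17-/- libraries, and *Cd80* and *Vsir* are lower in all of them.

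Among the costimulators, *Cd80* was alone in passing. *Cd86*, its partner on CD28 and CTLA-4 (Entrez 12524, chr16:36568956-36666158, minus strand), gave 65.0 and 76.1 CPM beside WT cells and 80.1, 79.7 and 76.4 CPM beside Adam17-/- cells. The second WT library came up to the edge of the other group. The log2 fold change was 0.16 (SE 0.0930, 95% interval -0.05 to 0.37, edgeR adjusted p = 0.219). Without WT replicate 2 it was 0.27, and *Cd86* passed (edgeR adjusted p = 0.0124), while without WT replicate 1 it was 0.04 (edgeR adjusted p = 0.683).

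Compared per length within each library, *Cd86* stood at 2.67 and 3.78 times the level of *Cd80* beside WT cells, in FPKM (fragments scaled for transcript length and library total), and at 6.04, 5.48 and 4.97 times beside Adam17-/- cells. The balance between the ligands leaned further to *Cd86* in all 3 Adam17-/- libraries. The mean log2 ratio of *Cd80* to *Cd86* was -1.67 ± 0.352 (SD, n = 2) and -2.45 ± 0.142 (SD, n = 3), a difference of -0.79. A two-sided exact permutation test gave p = 0.1, the smallest that 2 libraries against 3 allow.

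*Icosl*, the ligand of the costimulatory receptor ICOS (Entrez 50723, chr10:78069368-78079525, plus strand), gave 51.3 and 45.9 CPM beside WT cells and 41.7, 41.8 and 43.3 CPM beside Adam17-/- cells. The groups did not overlap in CPM, although they did in FPKM. The log2 fold change of -0.20 did not pass (SE 0.0888, edgeR adjusted p = 0.110). It was -0.12 without WT replicate 1, -0.28 without WT replicate 2, where it passed (edgeR adjusted p = 0.0151), and -0.05 with library totals alone. *Cd40*, the receptor through which helper T cells license macrophages and dendritic cells (Entrez 21939, chr2:165055614-165071654, plus strand), was barely expressed, at 3.30 and 2.16 CPM against 3.01, 1.97 and 2.65 CPM. The groups overlapped. At 30 to 63 counts per library its interval ran from -0.69 to 0.50 around a log2 fold change of -0.09. A rise or a fall within that interval is therefore not excluded.

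Of the remaining brakes, *Havcr2*, which encodes TIM-3 (Entrez 171285, chr11:46454931-46481255, plus strand), gave 27.0 and 27.8 CPM beside WT cells and 27.9, 27.9 and 27.0 CPM beside Adam17-/- cells, and the groups overlapped. The log2 fold change was 0.01 (95% interval -0.19 to 0.21, edgeR adjusted p = 0.935). It was 0.16 with library totals alone, still not passing, and in FPKM the groups did not overlap, at 10.06 or less beside WT cells and 10.52 or more beside Adam17-/- cells. *Lgals9*, which encodes galectin-9, a ligand of TIM-3 (Entrez 16859, chr11:78962979-78984924, minus strand), gave 166 and 163 CPM against 153, 145 and 161 CPM. These values were slightly lower beside Adam17-/- cells, with a log2 fold change of -0.11 that did not pass (95% interval -0.29 to 0.07, edgeR adjusted p = 0.326).

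*Sirpa*, which encodes SIRPα, had the highest level of the 10 genes per length (Entrez 19261, chr2:129591042-129632228, plus strand). It measured 1976 and 1660 CPM beside WT cells and 1461, 1532 and 1502 CPM beside Adam17-/- cells. WT replicate 1 stood above the rest, and the groups did not overlap in CPM, although they did in FPKM. The log2 fold change was -0.28 (SE 0.0967, 95% interval -0.50 to -0.06), and the edgeR adjusted p of 0.0520 just missed the threshold. *Sirpa* passed in DESeq2 (adjusted p = 0.0225) and without WT replicate 2 (log2 fold change -0.40, edgeR adjusted p = 0.00237), but shrank to -0.15 without WT replicate 1 (edgeR adjusted p = 0.189) and to -0.13 with library totals alone (edgeR adjusted p = 0.255).

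The files list *Sirpa* as several transcripts. The 4031-base transcript held 65.3% and 68.4% of the gene's FPKM beside WT cells and 61.0%, 62.0% and 64.1% beside Adam17-/- cells, a difference of -4.45 percentage points with no overlap. Without WT replicate 2 the difference was -2.86 points, and without WT replicate 1 it was -6.04 points. The 3845-base transcript moved the other way, from 22.5% and 19.7% to 23.7%, 23.4% and 23.5%. Exact permutation tests gave p = 0.1 for each, again the smallest possible. For *Vsir* and *Lgals9* the leading transcript held most of the gene in both groups, with means of 81.0% and 81.1% for *Vsir* and 99.2% and 98.7% for *Lgals9*. The listed *Vsir* transcripts were 4846 and 4843 bases long, and how well reads tell them apart was not tested. The 1683-base transcript of *Cd40* held 50.3% ± 0.0913 (SD, n = 2) and 55.8% ± 18.2 (SD, n = 3) on few counts.

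Ranked by mean FPKM, the order beside WT cells was *Sirpa* (443), *Vsir* (207), *Lgals9* (109), *Cd274* (62.2), *Cd86* (26.9), *Icosl* (17.02), *Havcr2* (9.69), *Cd80* (8.43), *Cd40* (1.58) and *Pdcd1lg2* (0.990). No neighbours in this order overlapped in their 2 libraries. Beside Adam17-/- cells *Cd274* stood at 132 and passed *Lgals9* at 111, and *Pdcd1lg2* at 2.30 passed *Cd40* at 1.64, the only neighbours whose libraries overlapped. *Sirpa* and *Vsir* together held 74.6% and 72.3% of the summed FPKM of the 10 genes beside WT cells and 64.4%, 66.0% and 65.4% beside Adam17-/- cells. PD-L1 thus moved from the fourth to the third most abundant of these transcripts, while PD-L2 stayed scarce in all 5 libraries. *Cd274* exceeded *Pdcd1lg2* by 51.8 and 79.3 times in the WT libraries and by 53.7, 72.1 and 50.2 times in the others. That ratio did not separate the groups (two-sided exact permutation p = 0.6).

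**Figure D3:**
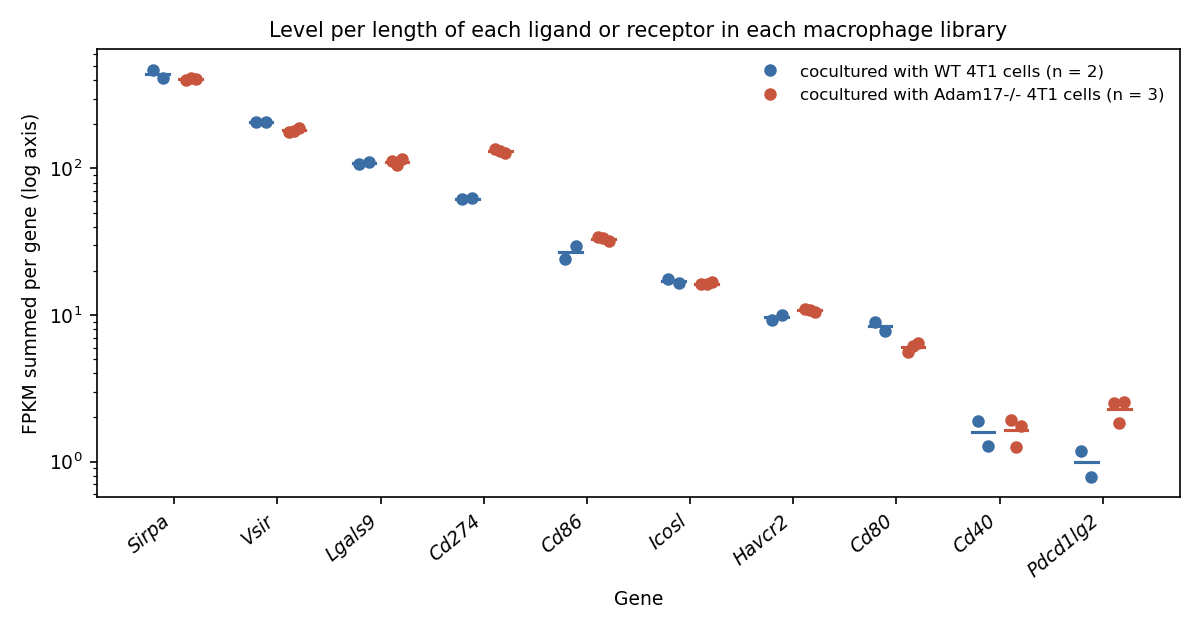
FPKM summed per gene (y axis, log scale) of each of the 10 genes (x axis) in the 2 WT and 3 Adam17-/- libraries, with lines for the means. *Cd274* moves above *Lgals9* beside Adam17-/- cells, and *Pdcd1lg2* remains between 0.79 and 2.54 FPKM.

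The genes around the PD-1 ligands were examined in chromosomal order. *Plgrkt*, which encodes a plasminogen receptor and is transcribed away from *Cd274* on the opposite strand, measured 42.1 ± 3.71 CPM (SD, n = 2) beside WT cells and 69.6 ± 2.45 CPM (SD, n = 3) beside Adam17-/- cells. Its log2 fold change of 0.73 passed (SE 0.0922, edgeR adjusted p = 0.000843). *Jak2*, a kinase of cytokine receptors that ends 49012 bases before *Cd274*, rose by 0.41 (edgeR adjusted p = 0.0167), and *Insl6* between them did not pass at 0.25. Beyond *Pdcd1lg2*, *A930007I19Rik* passed at 1.20 (edgeR adjusted p = 0.0469) on about 1 CPM or less, and *Ric1* did not pass at 0.21. The call of *A930007I19Rik* held under 5 of 12 alternatives, and that of *Jak2* was lost without any 1 of the Adam17-/- libraries (highest adjusted p over all alternatives 0.0735). Of the 5 tested neighbours of the PD-1 ligands 3 passed as higher and 0 as lower, beside 14.9% and 16.8% of all genes. At the other 8 loci, 1 of 20 tested neighbours passed as higher, *Nos2* beside *Lgals9*, and 5 as lower, among them *Adprh* beside *Cd80* at -0.63 (edgeR adjusted p = 0.00148), a share of calls near the 31.7% of all genes. Whether the loci differ was not tested. The strand used in counting is not given in the sources used here. *Plgrkt* and *Cd274* overlap in some RefSeq models, so part of the reads of one could have been assigned to the other.

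**Figure D4:**
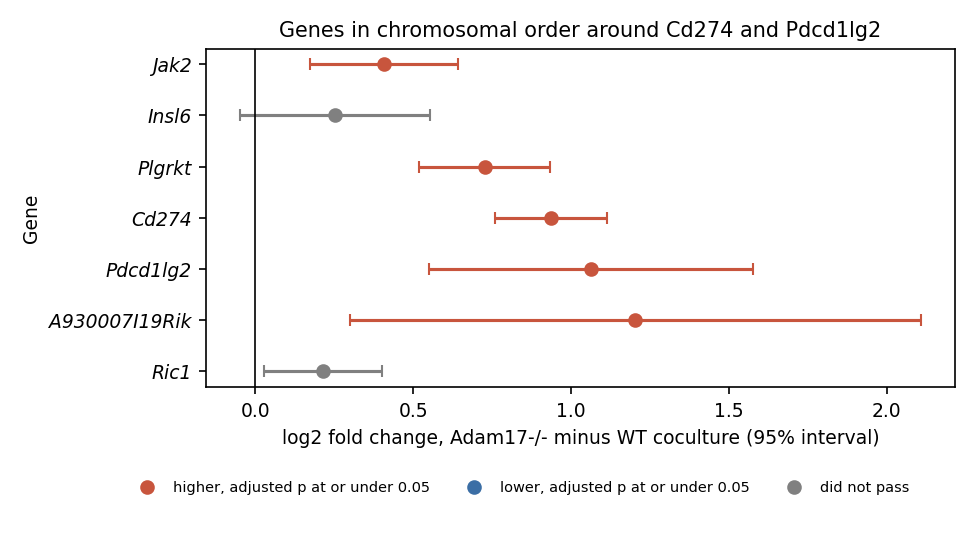
Log2 fold change (x axis), Adam17-/- minus WT coculture, with unadjusted 95% intervals, of 7 genes in the order in which they lie on chromosome 19 (y axis). All 7 estimates are above 0, and 5 passed the test, from *Jak2* at 0.41 to *A930007I19Rik* at 1.20.

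Other genes of these pathways were read from the same fit. Of 15 regulators of PD-L1 and PD-L2, all tested, 2 passed as higher and 2 as lower, beside 14.9% and 16.8% of all genes. With library totals alone and in both FPKM fits these counts were 4 and 0. The median log2 fold change of the 15 was -0.01, or 0.14 with library totals alone. *Irf4*, a transcription factor of alternatively activated macrophages, measured 3.24 and 2.98 CPM beside WT cells and 7.22, 6.05 and 7.68 CPM beside Adam17-/- cells, a log2 fold change of 1.17 (edgeR adjusted p = 0.00172). *Jak2* was the other that rose, and the interferon-γ receptor chain *Ifngr1* (-0.32) and its kinase *Jak1* (-0.27) fell (edgeR adjusted p = 0.0135 and 0.0295). The falls of *Ifngr1* and *Jak1* did not pass with library totals alone, and each was lost without Adam17-/- replicate 1 or replicate 2, *Jak1* also without replicate 3.

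Of 11 tested members of a list of other inhibitory ligands, 3 passed as higher and 2 as lower, beside 14.9% and 16.8% of all genes. The median was -0.03, but 0.13 without WT replicate 1, 0.14 without Adam17-/- replicate 3 and 0.11 with library totals alone. *Cd24a*, whose product is a ligand of Siglec receptors, rose from 17.3 ± 4.86 to 41.5 ± 2.56 CPM (log2 fold change 1.26, edgeR adjusted p = 0.000754). *Cd47*, the ligand of SIRPα, rose from 95.2 ± 12.9 to 133 ± 5.13 CPM (0.48, edgeR adjusted p = 0.00645), and *Fgl2* rose by 0.46. *Ceacam1*, a partner of TIM-3, fell by 0.60 on the log2 scale (edgeR adjusted p = 0.00343). The call of *Fgl2* was lost without Adam17-/- replicate 1 or replicate 2 (highest adjusted p 0.0642).

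The SIRPα signaling and clearance list held 11 tested genes, of which 0 passed as higher and 5 as lower, beside 14.9% and 16.8% of all genes. The median was -0.23, and -0.08 with library totals alone and in both FPKM fits. All 11 estimates were below 0, but 3 were above it with upper quartile factors, library totals alone, FPKM or without WT replicate 2, and 1 was above it without any 1 of the Adam17-/- libraries. Without WT replicate 1 the number that passed as lower was 8, and without any 1 of the Adam17-/- libraries it was 3. *Calr*, whose product marks cells for uptake when it is on their surface, fell from 822 ± 97.7 to 417 ± 26.3 CPM (-0.98, edgeR adjusted p = 0.000381). Its receptor *Lrp1* fell by 0.54 and the adaptor *Tyrobp* fell by 0.46 on the log2 scale (edgeR adjusted p = 0.00538 and 0.00332). The kinase gene *Ptk2b* fell by 0.36, a call that held under 6 of 13 alternatives and was lost without any 1 of the Adam17-/- libraries. Among 3 tested genes of the TIM-3 list, 2 passed as lower, *Ceacam1* and *Bag6*, beside 16.8% of all genes. *Bag6* stood at -0.37, and its call was lost under 9 of 13 alternatives.

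In the CD40 pathway, 1 of 11 tested genes passed as higher and 1 as lower, beside 14.9% and 16.8% of all genes. The ubiquitin ligase *Birc2* rose (0.68, edgeR adjusted p = 0.00103), and *Nfkb2* of the noncanonical NF-kB pathway fell (-0.55, edgeR adjusted p = 0.0123). The median was 0.01, or 0.15 with library totals alone. The call of *Nfkb2* was lost without Adam17-/- replicate 1 or replicate 3. Of 6 tested genes among other costimulatory ligands, 1 passed, beside 31.7% of all genes. It was *Tnfsf9*, which encodes the 4-1BB ligand and fell by 0.51 on the log2 scale (edgeR adjusted p = 0.0118). That call was lost without Adam17-/- replicate 1 or replicate 2 (highest adjusted p 0.0618).

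Receptors that T cells use for these ligands were present in the macrophage libraries at unequal levels. *Cd28* gave 97.2 and 124 CPM beside WT cells and 75.5, 82.6 and 73.8 CPM beside Adam17-/- cells, a log2 fold change of -0.52 (edgeR adjusted p = 0.00812). That call was lost in both FPKM fits and without Adam17-/- replicate 1 or replicate 3. *Cd226*, a receptor for nectin ligands, passed as higher on 1.52 and 2.11 CPM against 3.45, 7.57 and 8.26 CPM (1.82, edgeR adjusted p = 0.00679). *Tnfrsf9*, the 4-1BB receptor, passed at 0.71 on a mean of 4.25 CPM or less, and under 7 of 13 alternatives. The summed level of 9 T cell markers was 1.68 to 4.68 CPM, with *Cd3e* at 1 count or 0 in each library and 2 of the 9 at 0 in all of them. Of the 8 tested genes of the receptor list 2 passed as higher and 1 as lower, beside 14.9% and 16.8% of all genes. The median was -0.06, but 0.17 without Adam17-/- replicate 2 and 0.09 with library totals alone.

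**Figure D5:**
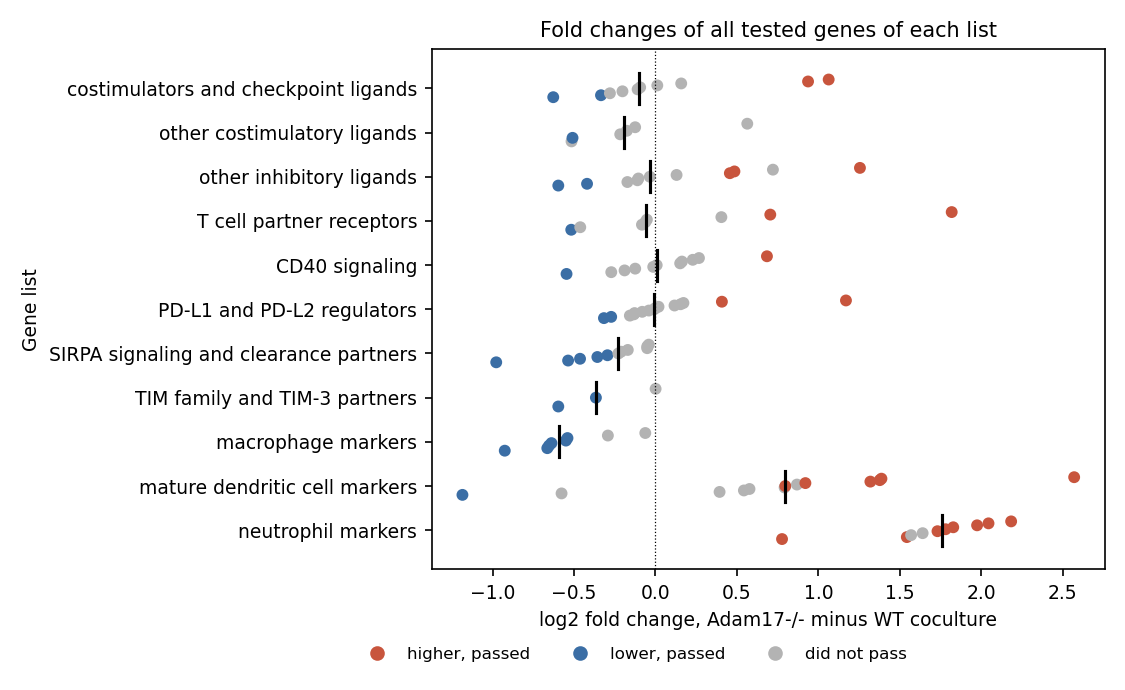
Log2 fold change (x axis), Adam17-/- minus WT coculture, of every tested gene of each list (y axis), with points coloured by whether the gene passed as higher or lower and black bars for the list medians. The 10 costimulators and checkpoint ligands spread around a median of -0.10, the 8 macrophage markers lie below 0 around -0.59 (7 of the 8 with library totals alone), and the 10 neutrophil markers lie above 0 around 1.76.

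Markers of the cells in the cultures moved with the groups. Of 8 macrophage markers 6 passed as lower and 0 as higher (median -0.59), beside 16.8% and 14.9% of all genes. Their sum was 28416 and 27659 CPM beside WT cells and 17945 to 19906 CPM beside Adam17-/- cells. *Csf1r* and *Mertk* did not pass. Of 10 neutrophil markers 8 rose and 0 fell (median 1.76), with a sum of 394 and 324 CPM against 1134 to 1311 CPM, *Ltf* reaching 75.3 to 107 CPM. The dendritic cell list holds markers of mature cells, which carry much PD-L1, PD-L2 and CD80, and others, such as *Clec9a*, that do not mark maturity. Of its 13 tested genes 6 passed as higher, beside 14.9% of all genes. They were led by *Il12b* (2.57), *Ccl22* (1.39), *Clec9a* (1.38) and *Ccr7* (1.32). With library totals alone 10 passed as higher, and in both FPKM fits 9 did. The only one that passed as lower was *Marcksl1*, at 98.2 CPM or more on average. It made the list's sum lower beside Adam17-/- cells (246 to 270 CPM) than beside WT cells (318 and 293 CPM). *Cd209a* was lower without passing (-0.58). The rise of *Il12b* started from 13 and 11 counts in the WT libraries. *Lamp3* and *Zbtb46* of the same list were near 0, at means of 0.258 CPM or less. Of 8 mammary cancer cell markers 6 were at or under 3 counts in every library, and *Epcam* had 1 count in 1 library and 0 in the rest, while *Cdh1* gave 10.6 to 13.2 CPM and did not pass and *Krt18* had 5 to 8 counts. B cell markers summed to 16.5 to 27.2 CPM with none passing of 3 tested. In bulk RNA fewer cells of a type and less RNA per cell cannot be told apart, and the part of these markers in the changes of *Cd274*, *Pdcd1lg2*, *Cd80* and *Vsir* was not tested.

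Total expected counts ran from 14658694 to 20788373 per library, and 3 counts, the limit that a count of 0 allows, corresponded to 0.157 to 0.197 CPM. This limit covers counting error only. The WT libraries differed from each other by more (chi-square per degree of freedom 25.7) than the Adam17-/- libraries did (5.22 to 6.32), and both by less than libraries of different groups (44.5 to 84.4). Leaving out WT replicate 2 added *Sirpa*, *Cd86* and *Icosl* to the genes of the 10 that passed, and leaving out WT replicate 1 changed no call among them.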

How the data were processed

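RNA-Seq libraries of BMDMs (2 WT, 3 Adam17-/- coculture) were read as the authors deposited them, 1 table of expected counts and FPKM per transcript and library. The submitters' processing notes name Bowtie2, RSEM and mm10 without a role for each, while the study's methods name HISAT for alignment to GRCm38 and Bowtie2 for normalization. Tool versions and the strand setting are not given in the sources used here. Transcripts under 0.01 FPKM were not listed by the authors and were taken as 0. Expected counts were summed per Entrez ID and rounded, and FPKM were summed without rounding. Libraries held 14658694 to 20788373 expected counts, which limits the precision of genes near 0.2 CPM.

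Groups came from the labels. The main test was edgeR 4.0.16 (glmQLFit, glmQLFTest, TMM factors, filterByExpr) in R 4.3.3 over 12576 genes with Benjamini-Hochberg adjustment, in place of the DESeq2 and PoissonDis tests the methods name, and it was tested on simulated data. CPM are TMM-normalized. Intervals are unadjusted 95% intervals of edgeR's log2 fold change. Ratios and transcript shares used two-sided exact permutation tests over libraries, computed in Python 3.11.15. Named were all 10 genes, up to 4 passing genes with the largest change of each other list, defining markers, and neighbours of the 10. The members and lists were chosen with earlier results of these data known, so no p-value was adjusted over them alone and no set test was run. *Marcksl1* was named after its value was seen. Alternatives were DESeq2 1.42.0, upper quartile factors, library totals alone, limma 3.58.1 on log2 of FPKM with pseudocounts of 0.1 or 1, no filter, at least 10 counts in every library, a replicate block, other thresholds, and leaving out each library.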

Additional observations from a re-analysis of the deposited data

How the results depend on the processing

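Over 13 alternatives, leaving out each library among them, *Cd274* (log2 fold change 0.91 to 1.08), *Pdcd1lg2* (0.73 to 1.43) and *Cd80* (-0.76 to -0.42) kept their direction and passed in each. *Vsir* kept its direction but passed in 7 of 13. Over all genes the median was 0.01 with TMM factors, and 0.16, 0.15 and 0.11 with library totals alone, log2(FPKM + 0.1) and log2(FPKM + 1). In these 3, in that order, *Vsir* did not pass (-0.19, -0.19 and -0.19), *Lgals9* (0.037, 0.036 and 0.035) and *Cd40* (0.057, 0.057 and 0.037) turned positive without passing, *Havcr2* (0.16, 0.16 and 0.14) did not pass, *Cd86* passed as higher (0.30, 0.31 and 0.30), 3019, 2927 and 2867 genes passed as higher and 1077, 1016 and 1011 as lower, and of the 10 genes 3 were higher and 1 lower. Of all calls 73.7%, 74.2% and 73.9% were then higher, against 46.9% with TMM factors and 57.9% with upper quartile factors. A fold limit of 1 on the log2 scale left 422 genes higher and 109 lower, and of the 10 genes 1 and 0. An adjusted p under 0.001 with a log2 change over 0.25 left 132 and 179, and of the 10 genes 1 and 0. Leaving out each library gave 1089 to 2460 genes higher, 926 to 2940 lower, 1 to 4 of the 10 lower, and log2 fold changes of -0.37 to -0.29 for *Vsir*, -0.36 to 0.24 for *Cd40* and -0.016 to 0.046 for *Havcr2*. The difference between groups (Adam17-/- minus WT) in the log2 ratio of *Cd274* to *Pdcd1lg2* then ran from -0.45 to 0.16, and those in transcript share from -5.01 to 11.6 points for *Cd40* and from -0.855 to 1.39 points for *Vsir*. The fewest genes passed without Adam17-/- replicate 1 and the most without WT replicate 2. The cause of these changes was not tested. Replicate numbers 1 and 2 occur in both groups, but same-numbered libraries did not deviate together (correlations -0.124 and -0.0504). With 2 WT libraries both values come from the same WT difference, so they cannot decide whether the numbers pair libraries. The numbers were read as names. A fit with the replicate block gave 1216 genes higher and 1126 lower, 1 of the 10 lower, and *Vsir* at -0.36 (edgeR adjusted p = 0.0860). Depth limits *Cd40* and *Pdcd1lg2* most, at 30 to 155 counts per library.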
